A study of Mus musculus with 18 samples.

Results

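A multiple skipped-exon event is a run of 2 or more neighbouring exons that transcripts of a gene either keep together or leave out together. In the deposited tables each such event has an included form, which lists a left exon, the cassette exons and a right exon, and a skipped form, which joins the left exon to the right one. All events of this type were taken and matched across the 18 libraries by gene, chromosome, start and end. This gave 6852 of the 38228 skipped-exon and retained-intron events, 5477 with exact and 1375 with approximate boundaries, in 3077 genes. The RNA came from thioglycolate-elicited peritoneal macrophages of mice on a C57BL/6 background. TLR4-WT mice were compared with TLR4-K730R and TLR4-K810R mice, in which CRISPR/Cas9 editing of embryonic stem cells replaced a lysine of the TLR4 TIR domain by arginine in every cell. Macrophages of each genotype were mock-treated or LPS-treated (100 ng/ml for 6 h), with 3 libraries in each of the 6 groups. Age is not in the labels, and nothing says that libraries of a group came from separate mice, so p-values measure the spread between these libraries.

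Splicing joins exons in the nucleus, and a cassette is kept or skipped depending on its splice sites and on RNA-binding proteins that act on them. When a coding cassette has a length divisible by 3, both forms keep the same reading frame and the proteins differ by an internal stretch. When it does not, the skipped form changes frame and usually meets a stop codon soon after the junction. In macrophages, LPS sensed by TLR4 induces inflammatory and interferon genes, and splice isoforms of signalling and adhesion proteins are known in this cell type.

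The junctions that separate both forms are shown for 7 coding events on which the results turn. Capitals mark bases of the cassette, and lower case marks 15 bases of the exon before it or after it. The sequences are the sense strand of GENCODE transcripts on GRCm38, whose exon coordinates the files match.
Macf1, included, upstream: cagacggaacaaaagGGTTGCAGAGCAGTT
Macf1, included, downstream: GAAGTTCAGGTCAAGactctgcagaaacaa
Macf1, skipped: cagacggaacaaaagactctgcagaaacaa
Adgre5, included, upstream: agaatacatgtcaagCATCAGTGAACACTG
Adgre5, included, downstream: GCACAGTGTGCGAAGatgtggatgagtgca
Adgre5, skipped: agaatacatgtcaagatgtggatgagtgca
Erbin, included, upstream: aaaaagttagaaaagAGTATGCTGTCAAGG
Erbin, included, downstream: CTGGCAAAGCAAGAGattcgagtaagagta
Erbin, skipped: aaaaagttagaaaagattcgagtaagagta
Pank2, included, upstream: caggattttctcacaATAGGTGACCTTCAG
Pank2, included, downstream: GGCTGTGGCTTCAAGttttggaaacatgat
Pank2, skipped: caggattttctcacattttggaaacatgat
Osbpl3, included, upstream: atctaccacctgaagGTGAAGTCAGAAGAA
Osbpl3, included, downstream: AAAGGAACGCTGCAGgtccctaagcctttt
Osbpl3, skipped: atctaccacctgaaggtccctaagcctttt
Irf7, included, upstream: agcttggatctactgTGGGCCCAGCCACGG
Irf7, included, downstream: AGCCAGCTCTCACCGagcgcagccttgggt
Irf7, skipped: agcttggatctactgagcgcagccttgggt
Clec4e, included, upstream: tcaccagatgtgtcgTAACATATCGCAGCT
Clec4e, included, downstream: ACACAGGAAGAGCAGgaattcctttttcgc
Clec4e, skipped: tcaccagatgtgtcggaattcctttttcgc

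The Macf1 cassette holds 5 exons, 6081 bases in all, between chr4:123463538-123476337 on the minus strand, and 5331 of its bases are 1 exon. The Adgre5 cassette holds 2 exons of 135 and 147 bases at chr8:83730111-83732037 on the minus strand. The Erbin cassette holds 3 exons and 468 bases at chr13:103824720-103830331, also on the minus strand. The Pank2 cassette holds 2 exons and 431 bases at chr2:131280157-131282768 on the plus strand. The other 3 lie on the minus strand: Osbpl3 with 4 exons and 489 bases at chr6:50346011-50348138, Irf7 with 3 exons and 219 bases at chr7:141264223-141264783, and Clec4e with 2 exons and 239 bases at chr6:123286208-123286518. All 7 cassettes lie within annotated coding sequence. Skipping leaves the annotated frame intact in Macf1, Erbin, Osbpl3 and Irf7, whose cassettes are as long as 2027, 156, 163 and 73 codons, and the 282 bases of the Adgre5 cassette are divisible by 3 as well. In Pank2 and Clec4e it shifts the frame, and a stop codon follows 14 and 7 codons past the junction.

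Most events could not be followed from library to library. Of the 6852 events, 1072 had the included form only and 1370 the skipped form only. A further 798 had both forms but never in 1 library, and 3612 had both in at least 1 library. The files list no form at 0 FPKM (fragments per kilobase of transcript, scaled to library size), so an unlisted form was not detected, at a depth the files do not give. An event was tested where both forms were listed and together reached 1 FPKM in at least 2 of the 3 libraries of every group. This left 351 events in 270 genes, 5.12% of the members, 286 with exact and 65 with approximate boundaries. Events of 1 gene share transcripts, and 65 genes had more than 1 tested event. The inclusion share is the included FPKM as a percentage of both forms, and it is known in all 18 libraries for 172 events.

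Most tested cassettes had 2 exons, and the mean share was at least 90% in 187 of the 351. Several included patterns were listed for 106 of the 351 events. Exon number, length and frame describe the pattern with the highest FPKM, whereas the share sums all of them. The cassette had 2 exons in 259 events, 3 exons in 51 and 4 or more in 41, with a median length of 261 bases and a range of 68 to 6081. It lay within coding sequence in 257 events, and its length was divisible by 3 in 152 of these (59.1%). Among the 5482 members with a listed included form, 2787 were coding and 1464 of those (52.5%) were divisible by 3. The mean inclusion share was between 10% and 90% in 141 events and under 10% in 23. The median over events was 92.3%, and single libraries had medians of 91.6% to 97.1%, the lowest in replicate 3 of TLR4-K810R mock. That library also had the highest summed FPKM of the mesothelium and fibroblast markers (181, against 16.2 to 90.6 in all libraries outside its group) and of the intestinal markers (46.9), and their part in its shares was not tested.

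**Figure D1:**
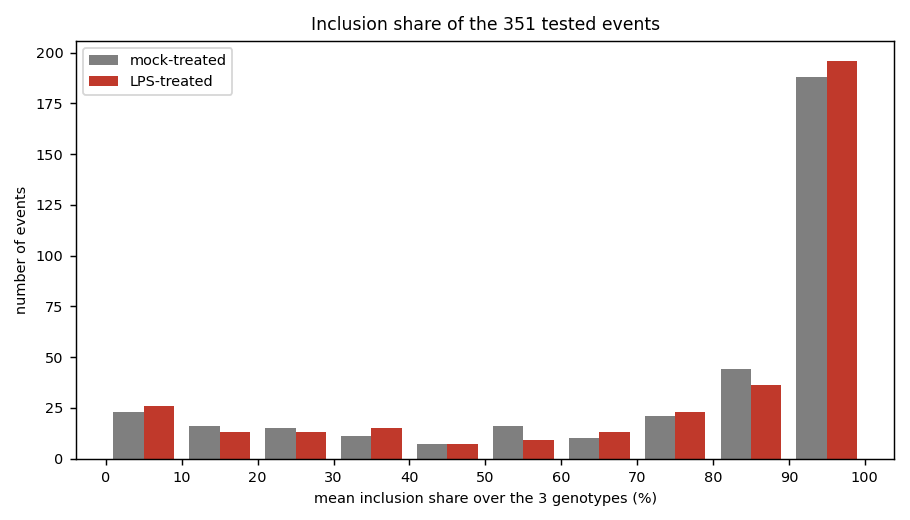
Number of tested events (vertical axis) by mean inclusion share over the 3 genotypes in bins of 10 percentage points (horizontal axis), for mock-treated (grey) and LPS-treated (red) macrophages. The bin from 90% to 100% holds 188 events in mock and 196 after LPS.

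Replicate spread grew where both forms were well used. The median within-group SD of the share was 3.60 percentage points over all tested events and 11.2 points over the 141 events between 10% and 90%. Group means differed by more than 10 points between LPS and mock in 80 events for TLR4-WT, 79 for TLR4-K730R and 86 for TLR4-K810R. Between a mutant and TLR4-WT they did so in 64 to 76 events, whether with or without LPS.

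The first question was which cassettes changed with LPS over the 3 genotypes. The tested value was log2((included + 1)/(skipped + 1)) in FPKM, fitted with limma over all 3678 testable events of every type. An event was called at a Benjamini-Hochberg adjusted p under 0.01. Of the 351 events 34 were called, 14 with a higher and 20 with a lower ratio after LPS. This is 9.69%, against 7.83% of all events tested (3.56% higher and 4.27% lower), so the members' share was near the background. Inclusion shares of the mock and LPS libraries that had one did not overlap in 12 events (3.42%), against 1.25% of all events. At most 9 libraries stood on each side. A share was known in all 18 for 172 of the 351 members and 2027 of the 3678 events, and fewer values separate more easily. The 34 calls fell into 2 kinds that the share separates. In 9 events, from 8 genes, the mean share moved by 10 points or more, and in the other 25 it moved by at most 6.09 points. When the share itself was tested without a log, Macf1 was the only one of the 9 that was called, and the other 8 had limma adjusted p-values of 0.0116 to 0.34. On the log ratio of the shares plus 0.05, a scale chosen after seeing the data, it was again Macf1 alone, with 0.0252 to 0.206 for the other 8. In 24 of the 34 the share was at least 90% in every group.

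**Figure D2:**
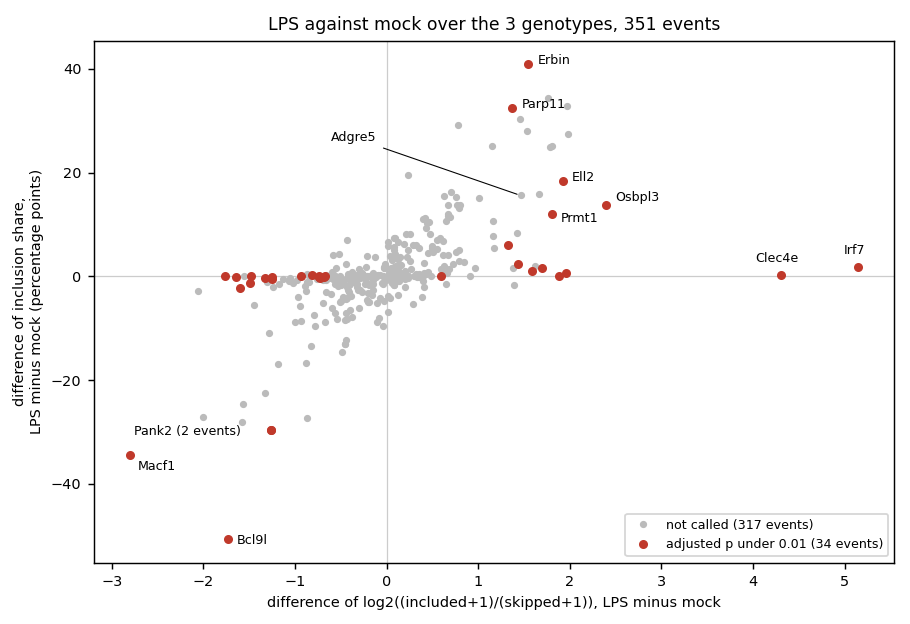
Each point is 1 of the 351 tested events, with the difference of log2((included + 1)/(skipped + 1)) between LPS and mock on the horizontal axis and the difference of the inclusion share, in percentage points, on the vertical axis. Red points are the 34 called events, of which 25 lie within 6.09 points of 0 on the vertical axis, among them Irf7 and Clec4e at the right edge.

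Macf1, a giant linker between actin filaments and microtubules, lost most of its 5-exon cassette after LPS. In TLR4-WT the inclusion share was 39.7%, 41.5% and 43.1% in mock and 5.46% and 3.74% after LPS. In TLR4-K730R it was 42.2%, 23.2% and 46.9% in mock and 4.94%, 3.02% and 9.74% after LPS. In TLR4-K810R it was 38.6%, 51.0% and 54.7% in mock and 17.5% and 8.22% after LPS. Every LPS library lay below every mock library. The 2 missing LPS libraries, replicate 2 of TLR4-WT and replicate 1 of TLR4-K810R, listed no included form beside 26.3 and 19.1 FPKM of the skipped form, and the fit dropped them. The included form had a median of 13.9 FPKM in mock and 1.82 FPKM after LPS, whereas the skipped form had medians of 19.0 and 26.5 FPKM. Averaged over genotypes the share went from 42.3% to 7.79%, and the log2 ratio fell by 2.80 (SE 0.28, limma adjusted p = 1.97e-05). The event was called in TLR4-WT (limma adjusted p = 0.00275) and TLR4-K730R (limma adjusted p = 0.00263), and had an adjusted p of 0.0155 in TLR4-K810R. It was also called on the share itself, without a log (adjusted p = 0.00121), and in all 18 fits that left out 1 library. The calls within TLR4-WT and within TLR4-K730R were kept in 1 and 2 of the 6 such fits.

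**Figure D3:**
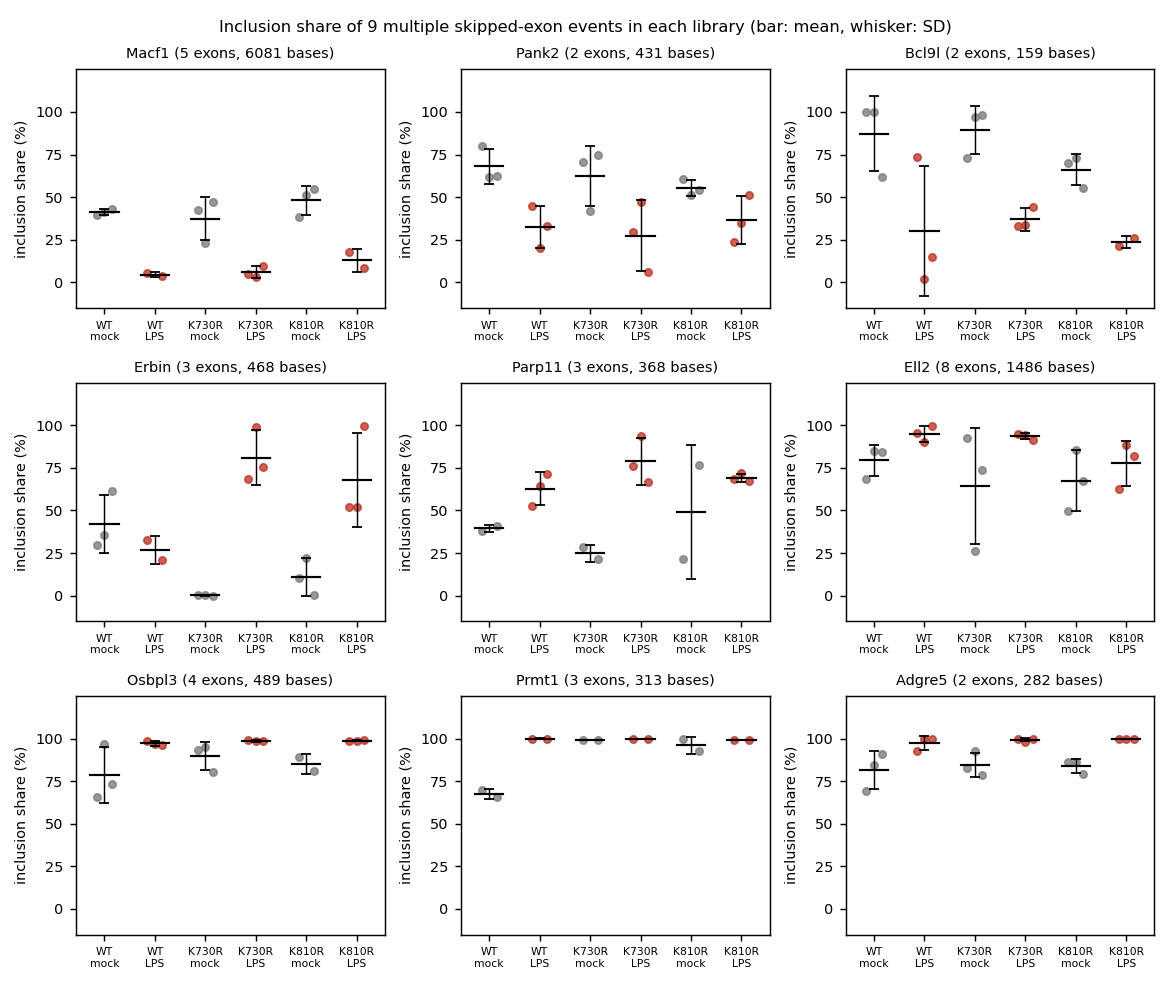
Inclusion share in percent (vertical axis) of 9 events in each library (points; grey mock, red LPS) by genotype and treatment, with the group mean (bar) and SD (whisker); libraries without both forms or under 1 FPKM have no point. In Macf1 and Adgre5 no LPS library overlaps a mock library, and in Erbin TLR4-WT lies apart from both mutants after LPS.

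Adgre5 (CD97), an adhesion receptor whose splice isoforms differ in their EGF-like repeats, showed the opposite change of share. Its mock libraries ranged from 69.3% over a median of 84.4% to 92.6% inclusion, and its LPS libraries from 92.8% over 99.9% to 99.9%. The groups did not overlap. Both forms fell after LPS: the included form had medians of 87.9 and 12.2 FPKM, and the skipped form 14.0 and 0.0215 FPKM. The mean share was 81.5% ± 11.0 (SD, n = 3) in TLR4-WT mock and 97.5% ± 4.08 after LPS. On the ratio with 1 FPKM added, the difference of 1.46 (SE 0.35) just missed the threshold (limma adjusted p = 0.0111). It was not called on the share without a log. It was called on the arcsine of the share (limma adjusted p = 0.00115) and on the log ratio of the shares plus 0.05 (limma adjusted p = 0.00162), as was Macf1. The Adgre5 event was chosen for description after those values were seen.

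Pank2, the mitochondrial pantothenate kinase of coenzyme A synthesis, shifted towards its frame-shifted skipped form. The mock libraries ranged from 42.0% over a median of 61.6% to 79.9% inclusion, and the LPS libraries from 5.93% over 33.1% to 51.4%. Both groups overlapped in part. The log2 ratio fell by 1.26 (SE 0.29, limma adjusted p = 0.0086), with group means of 68.0%, 62.4% and 55.4% in mock and 32.7%, 27.5% and 36.7% after LPS in the order TLR4-WT, TLR4-K730R, TLR4-K810R. The same 2 exons were called a second time as an approximate event, which differed in the value of 1 library. Leaving out single libraries kept the call in 4 of 18 fits, with an adjusted p up to 0.0201. It was lost with 0.1 FPKM added (limma adjusted p = 0.0318) and on the share without a log (limma adjusted p = 0.0374), and was called in 3 of 11 alternatives.

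Bcl9l, a co-activator of beta-catenin, had its 2-exon event in a noncoding transcript, with a mean of 2.50 FPKM for both forms. Inclusion ranged from 55.5% over 73.0% to 99.95% in mock and from 1.89% over 29.5% to 73.4% in the 8 LPS libraries that reached 1 FPKM. The highest LPS value was replicate 1 of TLR4-WT, and the other LPS libraries were at or below 44.4%. The log2 ratio fell by 1.73 (SE 0.31, limma adjusted p = 0.00171), a call that was lost with 0.1 FPKM added (adjusted p = 0.0103) and on the share without a log (adjusted p = 0.0230).

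4 events from genes other than Erbin rose by 10 points or more. Osbpl3, an oxysterol-binding protein at membrane contact sites, ranged from 65.4% over 85.1% to 96.8% in mock and from 96.0% over 98.4% to 99.3% after LPS. Its log2 ratio rose by 2.39 (SE 0.27, limma adjusted p = 3.97e-05), while the included form went from a median of 3.41 to 14.5 FPKM. It was not called on the share without a log (limma adjusted p = 0.112). The skipped form had medians of 0.26 and 0.219 FPKM, so the included level moved with this ratio, and its part was not tested.

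Ell2, a transcription elongation factor, had an 8-exon event of 1486 bases with approximate boundaries. Its share ranged from 26.3% over 73.5% to 92.7% in mock and from 62.6% over 91.5% to 99.5% after LPS, and both treatments overlapped. The log2 ratio rose by 1.92 (SE 0.41, limma adjusted p = 0.00548), with the included form at medians of 4.10 and 23.3 FPKM. This call was kept in 8 of the 18 fits without 1 library, with an adjusted p up to 0.0135, and lost with 0.1 FPKM added (limma adjusted p = 0.0740). The exon chain of the Parp11 event, in a gene for a mono-ADP-ribosyltransferase, is not annotated. Its mock shares were 38.1% and 40.9% for TLR4-WT, 28.4% and 21.4% for TLR4-K730R, and 21.3% and 76.7% for TLR4-K810R. After LPS they ranged from 52.7% to 93.9%, so that replicate 3 of TLR4-K810R was the only mock library among the LPS values. The log2 ratio rose by 1.37 (SE 0.28, limma adjusted p = 0.00636), a call kept in 6 of the 18 fits without 1 library. With unlisted forms at 0 FPKM the Parp11 difference was 0.79 and not called (limma adjusted p = 0.134), nor was it called with 0.1 FPKM added (limma adjusted p = 0.0530).

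Prmt1, the main asymmetric arginine methyltransferase, differed in 1 group. TLR4-WT mock had 69.5% and 65.6% inclusion in replicates 1 and 3, from 15.6 and 14.0 FPKM of the skipped form, while replicate 2 listed no skipped form beside 46.8 FPKM of the included form. The other groups had means of 96.0% to 99.8%. LPS raised the log2 ratio in TLR4-WT by 3.92 (SE 0.54, limma adjusted p = 0.00495), a call kept in 2 of the 6 fits without 1 library. With an unlisted form set to 0 FPKM the difference over the 3 genotypes was no longer called (adjusted p = 0.136), nor was it with 0.1 FPKM added (adjusted p = 0.0209). In the mock state TLR4-K730R exceeded TLR4-WT by 31.7 points (limma adjusted p = 0.0434) and TLR4-K810R did by 28.4 points (limma adjusted p = 0.149), neither below the threshold on the log ratio. The latter was called on the share without a log (adjusted p = 0.00538).

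Erbin, a LAP-family scaffold that binds ERBB2, rose after LPS in TLR4-K730R and was not called in the other genotypes. Averaged over the 3 genotypes it was called, and this call was kept in all 18 fits without 1 library. It was not called on the share without a log (limma adjusted p = 0.0230). In TLR4-WT the share was 29.6%, 35.3% and 61.4% in mock and 32.8% and 21.1% after LPS. In TLR4-K730R it was 0.553%, 0.370% and 0.0495% in mock and 68.4%, 99.01% and 75.7% after LPS. In TLR4-K810R it was 10.4%, 22.2% and 0.184% in mock and 52.2%, 52.0% and 99.5% after LPS. Mock values of both mutants lay below, and LPS values of both mutants above, those of TLR4-WT. Both forms together had a mean of 2.96 FPKM, and replicate 3 of TLR4-WT after LPS was dropped for falling under 1 FPKM. LPS raised the log2 ratio in TLR4-K730R by 2.93 (SE 0.43, limma adjusted p = 0.00132). The difference was 2.22 (SE 0.43, limma adjusted p = 0.0107) for TLR4-K810R and -0.50 (SE 0.48, limma adjusted p = 0.646) for TLR4-WT, where mock and LPS libraries overlapped. The difference of that response from TLR4-WT was 3.44 (SE 0.65) for TLR4-K730R, with a limma adjusted p of 0.0945, and 2.72 (SE 0.65) for TLR4-K810R, with a limma adjusted p of 0.749. A second Erbin event has the same skipped form but 2 cassette exons of 324 bases together, with shares of 68.1% to 85.3% in mock and 73.9% to 99.9% after LPS, and was not called over the 3 genotypes (limma adjusted p = 0.108).

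Of the remaining 25 calls, 24 were of cassettes kept in nearly all transcripts, and there the ratio moved with the level of the gene. The other one was Tbc1d9, a Rab GTPase-activating protein, with a mean share of 86.7% in TLR4-K810R mock. In the 24 events, which had a share of at least 90% in every group, the included form and the summed level moved the same way as the ratio in all 24. With so high a share and 1 FPKM added to a small skipped form, this agreement follows from the way the ratio is built. The median size of the change was 1.34 on the log2 scale for the included form and 0.0309 for the skipped form, and in 19 of the 24 the skipped form stayed under 1 FPKM in every library. Of the 154 tested events at 90% or more in every group, 15.6% were called, against 5.08% of the other 197. The same split was not computed over the events of every type. Whether this contrast is particular to multiple skipped-exon events was therefore not tested.

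Clec4e (Mincle), a C-type lectin that senses mycobacterial glycolipid, was the clearest case. Its included form ranged from 27.1 over a median of 56.8 to 79.6 FPKM in mock and from 835 over 1109 to 1333 FPKM after LPS. Its skipped form ranged from 0.119 to 0.152 FPKM in mock and from 0.111 to 0.218 FPKM after LPS. The share was 99.5% to 99.8% in mock and at least 99.98% after LPS, without overlap. The log2 ratio rose by 4.30 (SE 0.15, limma adjusted p = 2.19e-10), and the share by 0.268 points.

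Tgm2, a transglutaminase, behaved alike: its included form had medians of 59.7 and 241 FPKM and its skipped form 0.572 and 0.719 FPKM. Its share was 98.8% to 99.2% in mock and 99.6% to 99.8% after LPS, and was called on every scale tried for the averaged comparison. Both genes were called on the share scales too, with shifts under 1 point. Bin2, a BAR-domain protein of phagocytes, moved the other way. Its included form had medians of 33.2 FPKM in mock and 10.2 FPKM after LPS, its skipped form lay between 0.0142 and 0.0219 FPKM where it was listed, and its log2 ratio fell by 1.64 (SE 0.14, limma adjusted p = 4.49e-06).

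**Figure D4:**
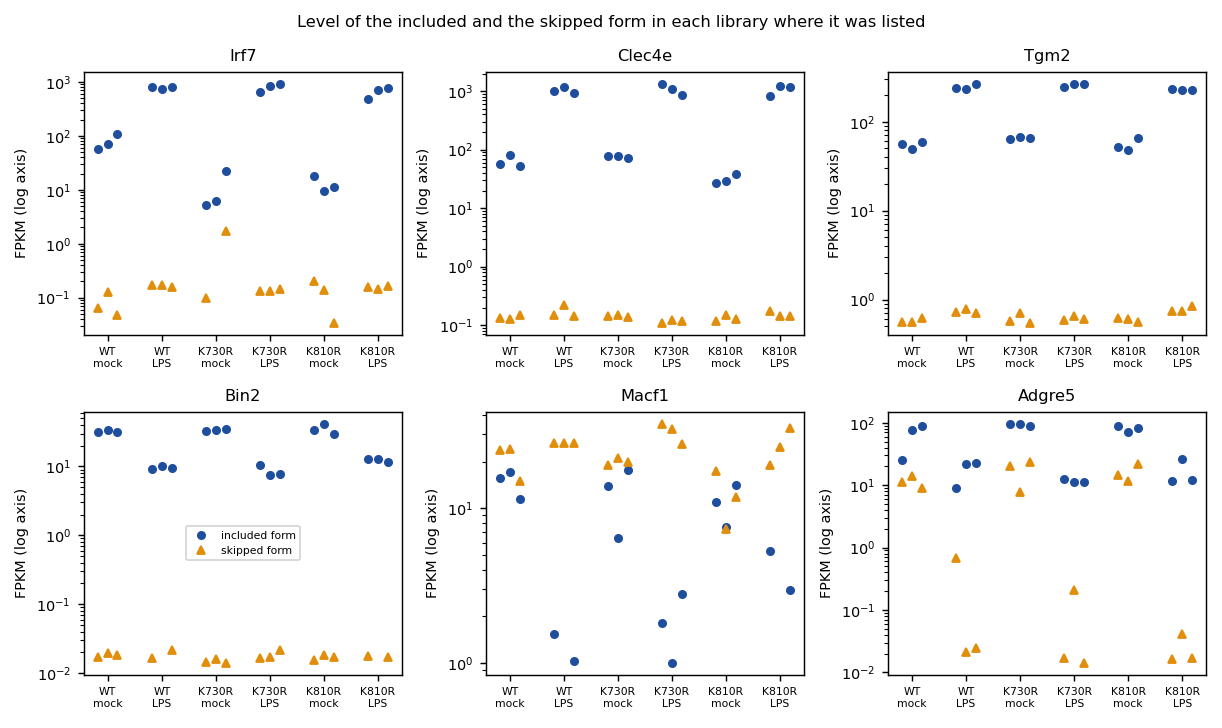
FPKM on a log axis of the included form (blue circles) and the skipped form (orange triangles) in each library by genotype and treatment, for 6 events. In Irf7, Clec4e, Tgm2 and Bin2 the included form moves with LPS while the skipped form stays low, in Macf1 the included form falls below the skipped form, and in Adgre5 both fall.

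The ratio of further near-complete cassettes rose for Cd200 (an inhibitory membrane ligand, log2 ratio 1.69), Gsap (1.59) and Actr3 (a subunit of the Arp2/3 complex, 0.59). The ratio fell for Cic (a transcriptional repressor, log2 ratio -1.60), Usf2 (a transcription factor, -1.49), Ucp2 (a mitochondrial carrier, -1.48) and Fuca2 (a fucosidase, -1.25). It also fell for Nptn (neuroplastin, log2 ratio -1.25), Napa (alpha-SNAP, -0.73), Rab7b (a late endosome GTPase, -0.73) and Glud1 (glutamate dehydrogenase, -0.68). The mean share of these 11 events moved by 2.30 points or less, with 0.0017 points for Actr3, -0.038 for Ucp2 and -0.092 for Napa, and none was called on a share scale. The calls of Cd200, Actr3 and Rab7b were kept in 6, 9 and 4 of the 18 fits without 1 library. Tbc1d9 rose by 1.32 (SE 0.25, limma adjusted p = 0.00241), from a mock median of 92.8% to 98.4% after LPS, and the shares of both treatments overlapped.

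Within single genotypes, 8 events were called for TLR4-WT (2.28%, against 1.77% of all events), 10 for TLR4-K730R (2.85%, against 2.31%) and 5 for TLR4-K810R (1.42%, against 1.47%). With only the compared groups in the fit the counts were 0, 3 and 2 (0%, 0.855% and 0.57%, against 0%, 0.462% and 0.0816% of all events). Without replicate 1 of mock, TLR4-WT had 3. Irf7, Clec4e, Tgm2 and Bin2 were called in all 3 genotypes. Macf1 was called in TLR4-WT and TLR4-K730R, Erbin, Usf2 and Ucp2 in TLR4-K730R, Fuca2 and Lair1 in TLR4-WT and TLR4-K730R, and Prmt1 in TLR4-WT. Osbpl3 was called in TLR4-K810R, where its share was 89.2% and 81.0% in mock and 98.4%, 98.6% and 99.3% after LPS, and this call was kept in 2 of the 6 fits without 1 library. Bin2 was kept in 3 of 6 such fits for TLR4-WT and 2 of 6 for TLR4-K810R, and Usf2 in 3 of 6. Fuca2 and Lair1 were each kept in 1 of 6 for TLR4-WT and in 0 of 6 for TLR4-K730R, where limma adjusted p-values reached 0.0257 and 0.0301. Shares did not overlap between the mock and LPS libraries that had one, 2 or 3 per group, in 24.8%, 22.2% and 22.5% of the events. Over all events tested these were 21.1%, 21.8% and 17.1%, and groups of 2 separate more easily.

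The next question was whether a mutant differed from TLR4-WT, in comparisons that share the TLR4-WT libraries. In mock macrophages 1 event was called for TLR4-K730R (0.285%, against 0.0272% of all events) and 1 for TLR4-K810R (0.285%, against 0.0544%), and both were the 3-exon cassette of Irf7. Markers of other cell types also differed between these mock groups. The intestinal list summed to 0.118 to 0.594 FPKM for TLR4-WT, 6.04 to 31.0 FPKM for TLR4-K730R and 9.54 to 46.9 FPKM for TLR4-K810R. The mesothelium and fibroblast list summed to 16.2 to 29.5, 36.3 to 42.4 and 68.4 to 181 FPKM in the same order, whereas mast cell markers were higher for TLR4-WT, at 4.70 to 5.25 FPKM against 0.494 to 2.58 and 0.797 to 2.64 FPKM. The neutrophil list, mostly S100a8, summed to 22.1 to 32.6, 34.6 to 40.7 and 36.5 to 46.7 FPKM. The part of these lists in the mutant comparisons was not tested. Irf7 is the interferon regulatory factor that drives type I interferon genes. Its included form was at 57.4, 69.4 and 106 FPKM for TLR4-WT mock, 5.21, 6.31 and 22.1 FPKM for TLR4-K730R mock, and 17.9, 9.45 and 11.3 FPKM for TLR4-K810R mock. Mock libraries of both mutants lay below those of TLR4-WT. After LPS the included form reached 489 to 916 FPKM in the 9 libraries. The skipped form was between 0.0345 and 0.206 FPKM everywhere except replicate 3 of TLR4-K730R mock, at 1.73 FPKM, and replicate 2 of that group, where it was not listed and which the fit dropped.

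The Irf7 share was thus 99.8% or more for TLR4-WT mock, 98.2% and 92.7% for TLR4-K730R mock, and 98.9%, 98.6% and 99.7% for TLR4-K810R mock. The log2 ratio fell by 3.35 (SE 0.35, limma adjusted p = 0.000859) from TLR4-WT to TLR4-K730R and by 2.56 (SE 0.31, limma adjusted p = 0.00263) to TLR4-K810R. After LPS it rose over the 3 genotypes by 5.15 (SE 0.19, limma adjusted p = 4.99e-10). As for the other near-complete cassettes, the level of Irf7 moved with the ratio. Neither mutant's mock difference was called on the share scales. The TLR4-K730R call was lost without replicate 1 of TLR4-K730R mock (limma adjusted p = 0.0241). The TLR4-K810R call was lost without replicate 2 or 3 of either mock group, with adjusted p-values up to 0.0263 in limma. A second Irf7 event of 2 exons and 380 bases, whose skipped form shifts the frame, was not called (limma adjusted p = 0.0243). Its skipped form was listed at 0.00746 to 1.31 FPKM in mock and at 3.74 to 10.3 FPKM after LPS.

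After LPS no event was called for TLR4-K730R or TLR4-K810R with limma (0 of 351 each, against 0.0272% of all events). An unadjusted p under 0.05 was found for 13 (3.70%, against 3.97% of all events) and 26 (7.41%, against 6.82%), near the background. The events with the smallest p had wide differences of share. Mark2, a kinase of microtubule-associated proteins, had 93.3% and 91.1% inclusion in TLR4-WT after LPS and 55.4%, 55.2% and 47.9% in TLR4-K730R (difference -39.4 points, limma adjusted p = 0.716). Tmpo, the lamina-associated polypeptide 2 of the nuclear envelope, had 69.3%, 65.2% and 73.4% in TLR4-WT and 99.8% in each of the 3 TLR4-K810R libraries (difference 30.5 points, limma adjusted p = 0.354). In neither did the 2 groups overlap. Shares failed to overlap between mutant and TLR4-WT libraries that had one, 2 or 3 per group, in 12.8% to 18.8% of the members. Over all events these were 13.4% to 15.6%.

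The response to LPS differed from that of TLR4-WT in 1 event for TLR4-K730R (0.285%, against 0.0544% of all events) and in none of 351 for TLR4-K810R (against 0.0272%). For TLR4-K810R, 19 events had an unadjusted p under 0.05 in limma (5.41%, against 5.87% of all events). The TLR4-K730R event was again Irf7, with a difference of 3.40 (SE 0.47, limma adjusted p = 0.00991). This call was lost in each of the 12 fits without 1 library. With its skipped form mostly far under 1 FPKM, the log2 ratio of Irf7 follows the level of its included form.

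Genes of 6 functional lists were looked up among the members. Over the 3 genotypes 9.69% of the members and 7.83% of all events were called, and no list was tested against these shares. Of 56 genes of TLR and NF-kB signalling, 18 had a member event and only Irf7 had tested ones, with 1 of 2 events called higher and a median log2 ratio difference of 3.27. Of 56 interferon and nucleic acid sensing genes, Ifnar1 and Ifi27 were tested with 4 events, and none was called. The median log2 ratio difference of these 4 was -1.06, and 3 of them were Ifi27 events that share transcripts. Ifnar1, a chain of the type I interferon receptor, had mean shares of 98.2% in mock and 99.8% after LPS (limma adjusted p = 0.0828), with replicate 3 of TLR4-K730R mock lowest at 86.0%. The Ifi27 event with the highest level had an adjusted p of 0.0188 with limma.

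Splicing factors held 7 tested events in 7 of 61 genes, and none was called. Pcbp2 and U2af1 kept their cassettes at near 100% in both treatments, with log2 ratio differences of -0.04 each. Hnrnpa2b1 had shares of 99.9% and 99.7% (limma adjusted p = 0.0205). The median log2 ratio difference of this list was -0.20, against -0.05 over all members.

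Leukocyte surface receptors and adhesion genes held 18 events in 11 of 70 genes, with 2 called higher (Clec4e and 1 event of Axl) and 1 lower (Sirpa). Of all events tested, 7.83% were called. The list's median difference was -0.17. A second event of Axl, a receptor tyrosine kinase for apoptotic cells, had shares of 78.1% over 91.7% to 99.01% in mock and 53.1% over 77.9% to 87.7% after LPS. Its skipped form had medians of 1.54 and 13.0 FPKM, and its ratio was not called (limma adjusted p = 0.0263). Itgb2, the beta2 integrin chain, had the highest level of any tested member, a mean of 853 FPKM, and mean shares of 99.9% in mock and after LPS for its cassette of 433 bases. Its log2 ratio difference was -0.24 (limma adjusted p = 0.482). Hspa8, a constitutive chaperone and the next gene by level, had shares of 91.6% to 99.99% in mock and 97.3% to 99.9% after LPS, with a difference of 1.38 that was not called (limma adjusted p = 0.167).

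Fn1 (fibronectin) had 2 tested events and neither was called. One had a share of at least 99.9% in mock libraries and fell to 75.6% in replicate 2 of TLR4-K810R after LPS, where the skipped form reached 62.6 FPKM (limma adjusted p = 0.0782). Cd44, the hyaluronan receptor, had 27 member events over its variable exons, of which 1 was tested. The skipped form of the tested event ranged from 22.5 to 97.3 FPKM, and its included form did not exceed 0.316 FPKM in the 15 libraries that listed it. Among the untested Cd44 events, 2 reached higher included levels, both in replicate 1 of TLR4-WT after LPS. A 3-exon cassette of 318 bases was listed there alone, at 6.26 FPKM and a share of 10.1%. A 2-exon cassette of 228 bases within it was at 6.56 FPKM there and at no more than 0.136 FPKM in the other libraries. The 3-exon cassette of Ptprc (CD45), at chr1:138117754-138122584 with exons of 141, 147 and 129 bases, was almost wholly skipped as a unit. Its skipped form was at 42.4 to 70.6 FPKM in the 18 libraries and its included form was listed in 4, at no more than 0.00225 FPKM. A second Ptprc event, at chr1:138116954-138120166, pairs the 147-base exon with one of 72 bases. Its included form was listed in all 18 libraries at 0.701 to 3.13 FPKM, so the 147-base exon was kept in some transcripts. None of the 3 Ptprc events was tested. For Tlr4 itself 1 event was listed in its skipped form only, at 2.83 to 5.73 FPKM in mock and at 0.218 to 2.32 FPKM in the LPS libraries, 1 of which did not list it.

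Cytoskeleton and membrane traffic genes held 12 events in 10 of 79 genes, with 1 called higher and 2 lower, beside 7.83% called over all events. The falls were Macf1 and Bin2. Zyx (zyxin) was called with a log2 ratio of 1.88 (limma adjusted p = 0.00389), while its mean share was 99.96% in mock and 99.94% after LPS, so ratio and share differed in sign. The list's median difference was 0.48. Flna, an actin cross-linker, had 99.9% in both treatments and was not called (limma adjusted p = 0.302). Among 80 transcription and chromatin genes, Ikzf1 and Kdm6a each had 1 tested event and neither was called (median log2 ratio difference 0.08). Kdm6a, an X-linked histone demethylase, had mean shares of 29.0% in mock and 14.4% after LPS with single libraries between 0.191% and 46.7% (limma adjusted p = 0.485).

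The libraries' labelled cell type was checked on marker genes. Of 7 macrophage markers 6 were listed, summing to 11633 to 14785 FPKM in mock and 7289 to 10057 FPKM after LPS, and Itgam stood under the name of a neighbouring gene. Most of this sum was Lyz2, at 5944 to 13291 FPKM. Fcgr1 went the other way, at 26.7 to 51.7 FPKM in mock and 160 to 412 FPKM after LPS. Adgre1 was at 148 to 253 FPKM in mock and 205 to 271 FPKM after LPS. B-cell markers summed to at most 3.66 FPKM and T-cell markers to at most 0.958 FPKM. The neutrophil list summed to 22.1 to 46.7 FPKM in mock and 167 to 239 FPKM after LPS, nearly all of it S100a8, with Elane at 0 in every library, and its part in the LPS results was not tested.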

How the data were processed

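The authors deposited, for each of the 18 libraries, a table of transcript events with an FPKM value, a gene number and exon coordinates; the aligner, the assembler and the event caller are not given in the sources used here. The labels name a human build, whereas the exons match GENCODE M21 on GRCm38, which was used for gene names and transcript sequences; 27 of the tested events carry the name of a neighbouring gene in the files. FPKM of all included forms of an event were summed, repeated rows were dropped, and libraries without both forms were left out of that event. The log2 ratio with 1 FPKM added to each form was fitted with limma 3.58.1 in R 4.3.3 (intensity trend, 6 groups in one fit, Benjamini-Hochberg adjustment over 3678 events, threshold 0.01). Without read counts, sequencing depth is unknown. With 1 FPKM added, the ratio also moves with the level where the skipped form is far under 1 FPKM. The members and gene lists were chosen with earlier results of these data known. Genes named are up to 12 called events each with the widest rise and the widest fall of share over the 3 genotypes (direction shared by all 3, 1 event per gene; 11 rises and 12 falls met this), 3 each way in other comparisons (or the 2 smallest p), the 3 with the highest level, up to 3 per gene list, and events of Ptprc, Cd44, Fn1 and Tlr4; Adgre5 and others named beside a count were added after their values were seen. Alternatives changed the added FPKM, scale, filter, fit and libraries. The fit was run on log ratios simulated with normal spread. Such data cannot show the effect of the added FPKM or of unlisted forms. Replicate numbers did not pair libraries: same-numbered libraries had correlations of -0.172 to 0.0961.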

Additional observations from a re-analysis of the deposited data

Results flagged for a closer look

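On the log2 ratio, the LPS response of the 3-exon Irf7 cassette differed between TLR4-K730R and TLR4-WT by a test of the difference itself (3.40, limma adjusted p = 0.00991). This call was kept in 0 of 12 fits without 1 library (adjusted p up to 0.0963) and in 4 of 11 alternatives. With 1 FPKM added to a skipped form mostly far under 1 FPKM, the log2 ratio of Irf7 follows the level of its included form. Its mean inclusion share was 99.9% in TLR4-WT mock, 95.4% in TLR4-K730R mock and above 99.9% in both groups after LPS. The included form rose in both, and the TLR4-K730R mock mean rests on the 2 libraries that listed the skipped form, at 98.2% and 92.7% for Irf7. No share-scale fit called this difference.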

How the results depend on the processing

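Calls among the members depended on the scale. Over the 3 genotypes 34 events were called, but 13 with 0.1 FPKM added, 3 on the share without a log, 5 on its arcsine and 4 on the log ratio of shares plus 0.05, an alternative chosen after seeing the data. These are 3.70%, 0.855%, 1.42% and 1.14% of the members, against 2.50%, 0.299%, 0.680% and 0.544% of all events. Further counts were 17 with a share in all 18 libraries, 65 at a threshold of 0.05, and 420 of 1913 with unlisted forms at 0 FPKM, where 17 had a share difference of 10 points or more and 233 one under 1 point. Over all events the shares called under these 3 settings were 6.91%, 15.8% and 19.6%, against 9.88%, 18.5% and 22.0% of the members. In TLR4-WT (8) these settings in the same order gave 3, 2, 0, 1, 2, 20 and 137. All but the last are 0.855%, 0.57%, 0%, 0.285%, 1.16% and 5.7% of members, against 0.299%, 0.19%, 0.109%, 0.163%, 1.38% and 3.97% of all events. In TLR4-K730R (10) they gave 4, 0, 0, 0, 3, 19 and 127. All but the last are 1.14%, 0%, 0%, 0%, 1.74% and 5.41% of members, against 0.353%, 0%, 0%, 0.0272%, 1.87% and 4.51% of all events. In TLR4-K810R (5) they gave 2, 0, 1, 1, 2, 14 and 97. All but the last are 0.57%, 0%, 0.285%, 0.285%, 1.16% and 3.99% of members, against 0.19%, 0%, 0.0816%, 0.0816%, 1.23% and 3.02% of all events. With unlisted forms at 0 FPKM the counts of the 3 genotypes are 7.16%, 6.64% and 5.07% of the members, against 6.41%, 6.59% and 4.83% of all events. Without a filter on the level TLR4-K810R had 10 (2.26%, against 1.37% of all events). With only the compared groups in the fit the counts were 0, 3 and 2 (0%, 0.855% and 0.57%, against 0%, 0.462% and 0.0816%). The replicate block, for numbers that do not pair libraries (2 of 18 libraries correlated best with their own number), gave 5, 6 and 3 in single genotypes and 25 over all. These are 1.42%, 1.71%, 0.855% and 7.12% of the members, against 1.28%, 1.39%, 0.924% and 5.85% of all events. Leaving out 1 library gave 27 to 34 over all, 3 to 7 in TLR4-WT, 6 to 8 in TLR4-K730R and 3 to 5 in TLR4-K810R. The share called over all events was not computed for these fits. The TLR4-WT count was 3 without replicate 1 and 4 without replicate 3 of mock, and 4 and 5 without replicates 2 and 3 of LPS; it was 6 for TLR4-K730R without LPS replicate 1, and 3 for TLR4-K810R without mock replicate 2.

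For the mock differences (1 each) the counts were 0 or 1 under most alternatives and with 1 library left out. TLR4-K730R had 3 without a filter (0.677%, against 0.0695% of all events) and 2 at 0.05 (0.57%, against 0.0816%). For the response of TLR4-K730R (1) they were 0 under the replicate block, without a variance trend, without a filter, on the 3 share scales, with all 18 libraries required, with each included form tested alone, with only the compared groups, and in each fit without 1 library. The mutant comparisons after LPS and the response of TLR4-K810R had 0 calls in every setting. Zyx changed sign on share scales (-0.000270 of the share, -0.00591 of the arcsine, -0.00803 of the log ratio of shares). The cause of these changes was not tested, apart from fewer events or libraries entering by construction. Of the alternative values of single named events 1415 kept direction and side of the threshold, 313 lost the call, 11 gained one and 3 changed sign. The unknown depth limits what an unlisted form means.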
